A study of Homo sapiens with 6 samples.

Results

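RDX, EZR and MSN encode radixin, ezrin and moesin, the ERM proteins that link cortical actin to the plasma membrane, and PODXL encodes podocalyxin, a sialomucin of the cell surface that is tied to ezrin. These 4 genes, chosen by name, were followed among 20149 protein-coding genes in ATAC-seq peak lists of the human cell line MDA-MB-231, which was established from a triple-negative breast cancer. ATAC-seq marks open chromatin, because a transposase cuts accessible DNA and inserts sequencing adapters there. There were 3 libraries of cells labelled Parental and 3 libraries of SAP30-KO1 cells, an MDA-MB-231 line with the genotype SAP30 knockout, and the labels give the same culture medium for both groups. SAP30 is a subunit of the SIN3 complex, and the comparison asked how chromatin accessibility differed when it was lost. Only 1 knockout line was included, so loss of SAP30 cannot be told apart from other differences between that line and the Parental cells. The study made its knockout lines with CRISPR/Cas9 and mixed several selected knockout cells, so SAP30-KO1 is a mixture and not 1 clone. The sources used here do not say that the libraries of a group came from separate cultures, so p values measure only the spread between these libraries, which may be technical.

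An ERM protein is folded shut in the cytoplasm, with its N-terminal FERM domain held against its tail. Binding to phosphoinositides and phosphorylation of the tail by kinases such as ROCK, LOK and SLK open it, and the FERM domain can then hold membrane proteins such as CD44 and ICAMs while the tail holds actin. The family is known in breast cancer cells for building microvilli and for its roles in cell shape, migration and invasion. Podocalyxin joins ezrin through its cytoplasmic tail and the NHERF scaffolds.

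The authors' peak caller gave each library its own list of summits, the highest point of each peak, and a score for each, the negative log10 of its q value. The lists held 29762 to 40650 summits, and the score was turned into a percentile rank from 0 to 100 within its own list. A rank of 0 stands for no summit. Read counts are not part of these lists, and the depth behind a summit is therefore unknown. Summits extended by 250 bp on each side were merged into 56419 loci over the 6 libraries. For each gene the window ran from 50 kb upstream to the end of the gene, and a promoter locus lay within 1 kb of any annotated start site of the gene. In these bulk libraries, a smaller share of cells with an open site cannot be told apart from a less open site in every cell. The mesenchymal genes VIM and CD44 had a promoter summit in all 6 libraries and ZEB1 in 3, while the epithelial gene CDH1, the leukocyte gene PTPRC and the endothelial gene PECAM1 had none in any library. Other entries of the marker list were less clear, as the luminal gene ESR1 had a promoter summit in 1 library, GATA3 in 5 and CD34, a marker of blood precursors and vessels, in all 6. The promoter of SAP30 itself had a summit in every library, with ranks between 64.8 and 84.7 in Parental and between 49.5 and 89.5 in SAP30-KO1 cells, which does not test the knockout because an open promoter says nothing of an edited coding sequence.

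The 4 windows held 51 loci, 6 of them at promoters of the 4 genes. RDX (ENSG00000137710) lies on the minus strand at chr11:109735021-110167437 and its window held 25 loci, 1 of them at its promoter. EZR (ENSG00000092820) lies on the minus strand at chr6:159186773-159240400, with 7 loci and 1 at the promoter, and is the shortest of the 4 genes. MSN (ENSG00000147065) lies on the plus strand at chrX:64808257-64961793, with 14 loci and 3 at promoters. PODXL (ENSG00000128567) lies on the minus strand at chr7:131185021-131242976, with 5 loci and 1 at the promoter. Positions are given on GRCh37 (hg19) with the first base as 1. The density of loci was between 4.63 per 100 kb around PODXL and 6.88 per 100 kb around MSN.

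Promoter sequences of the 3 ERM genes are printed because the comparison turns first on them. Each is 200 bases directly upstream of an annotated start site, from GRCh37, on the strand of its gene and 5′ to 3′. Capitals mark each match to the GC box GGGCGG of SP/KLF factors or to the AP-1 motif TGANTCA, on either strand, with overlapping matches of the GC box joined. The RDX sequence is chr11:110167438-110167637 and ends at the most upstream start of the gene, and the MSN upstream promoter is chrX:64808057-64808256 and ends at the first annotated start of MSN. The MSN canonical promoter is chrX:64887291-64887490, just before the start sites that cluster at the canonical one. The EZR sequence is chr6:159239260-159239459 and lies before an internal start, that of transcript EZR-201, near which the summits of EZR were.
RDX promoter: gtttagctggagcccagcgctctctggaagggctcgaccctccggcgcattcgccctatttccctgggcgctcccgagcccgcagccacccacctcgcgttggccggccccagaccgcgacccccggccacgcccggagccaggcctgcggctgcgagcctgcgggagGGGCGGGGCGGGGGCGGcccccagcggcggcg
MSN upstream promoter: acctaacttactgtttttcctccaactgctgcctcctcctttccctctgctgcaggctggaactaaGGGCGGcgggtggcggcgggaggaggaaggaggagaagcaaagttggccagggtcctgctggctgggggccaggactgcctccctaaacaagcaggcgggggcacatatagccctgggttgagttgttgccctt
MSN canonical promoter: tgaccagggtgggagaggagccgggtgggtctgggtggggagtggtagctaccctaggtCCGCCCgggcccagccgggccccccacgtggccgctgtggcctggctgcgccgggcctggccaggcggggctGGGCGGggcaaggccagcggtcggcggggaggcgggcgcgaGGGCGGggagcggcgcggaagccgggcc
EZR promoter: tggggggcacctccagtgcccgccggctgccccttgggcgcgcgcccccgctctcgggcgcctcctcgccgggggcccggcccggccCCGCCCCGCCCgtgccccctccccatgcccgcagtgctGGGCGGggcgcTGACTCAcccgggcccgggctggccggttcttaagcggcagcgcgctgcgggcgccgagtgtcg
The GC content of these stretches was 78% for RDX, 60.5% for the upstream promoter of MSN, 80.5% for its canonical promoter and 82.5% for EZR. In the same order they held 6, 1, 2 and 2 summits, so those of MSN and EZR do not cover all summits of their loci. The stretches of RDX, EZR and canonical MSN held 3 GC boxes each, and that of upstream MSN 1. The EZR stretch also held 1 AP-1 match. A match is a description of the letters and not a bound site.

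At the promoters, RDX and EZR had lower mean ranks in SAP30-KO1 cells, and MSN and PODXL had higher ones, but the libraries of a group differed widely for RDX and EZR. PODXL was the only gene of the 4 whose group ranges did not overlap. Of 12568 protein-coding genes with a promoter summit in any library, 10.6% had group ranges apart, 4.58% with SAP30-KO1 lower and 6.01% with SAP30-KO1 higher. No gene passed the test after adjustment over all 12568 genes, where the smallest adjusted p was 0.945 (two-sided exact permutation test, Benjamini-Hochberg adjustment). With 3 libraries against 3, the test allows no p below 0.1.

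**Figure D1:**
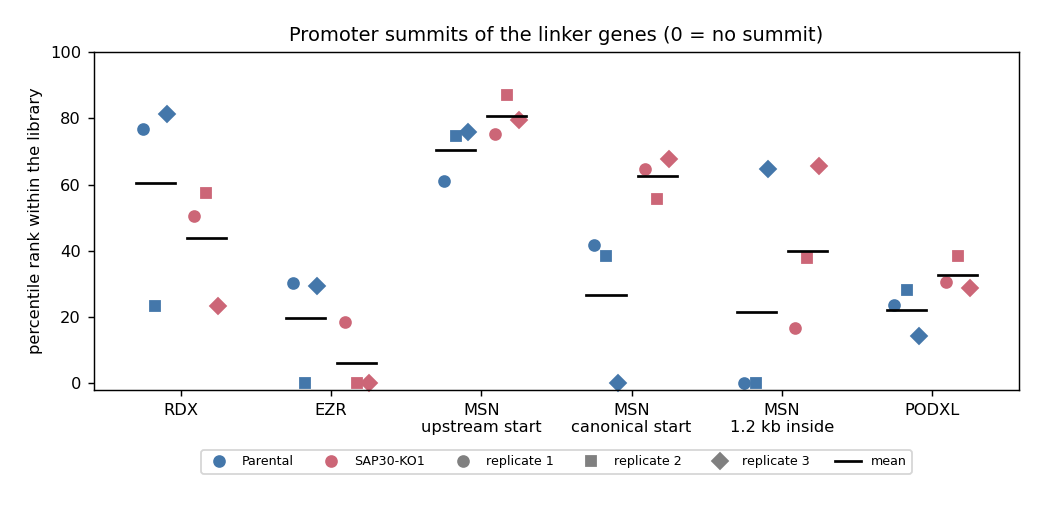
Percentile rank of promoter summits within each library (y axis, 0 to 100, with 0 for no summit) for RDX, EZR, the 3 promoter loci of MSN and PODXL. Blue symbols are Parental and red symbols SAP30-KO1 libraries, the symbol shape gives the replicate number, and black lines are group means. The groups stand apart at the canonical start of MSN and, narrowly, at PODXL, and overlap elsewhere.

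RDX had a single promoter locus, chr11:110167269-110167886, with 1 summit from each of the 6 libraries. These 6 summits lay between positions 110167519 and 110167636, a span of 117 bp inside the printed GC-rich stretch, and the middle of the locus lay at -150 bp from the nearest start site. The −log10 q scores were 9.05, 4.29 and 9.69 in Parental replicates 1 to 3 and 6.01, 7.35 and 4.26 in SAP30-KO1 replicates 1 to 3. The ranks, given in the same order here and for every later locus, were 76.7, 23.4 and 81.2 in Parental and 50.6, 57.5 and 23.2 in SAP30-KO1. Parental replicates 1 and 3 stood above all SAP30-KO1 libraries, and Parental replicate 2 was level with the lowest SAP30-KO1 library. The means were 60.4 ± 32.2 and 43.8 ± 18.1 (SD, n = 3), and the difference of -16.7 percentile points was smaller than the replicate spread (p = 0.5, two-sided exact permutation test). The ranges were apart when Parental replicate 2 was left out (-35.2), and the difference shrank when Parental replicate 1 (-8.52), Parental replicate 3 (-6.26) or SAP30-KO1 replicate 3 (-6.38) was left out. Ranked among the summits of its own chromosome arm alone, RDX differed by -7.00 points (p = 0.6, two-sided exact permutation test).

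No other locus lay within 1 kb of a start site of RDX, although the annotation gives 22 transcripts and 15 start sites. The nearest locus upstream, about 2.1 kb from the canonical start at position 110167339, had a summit in Parental replicate 1 at rank 38.2 and in SAP30-KO1 replicate 3 at rank 13.5. The nearest one inside the gene, 6.8 kb from that start, had a summit in Parental replicate 1 at rank 40.8 and in SAP30-KO1 replicate 2 at rank 16.1. Neither site was present in more than 2 libraries.

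EZR had its promoter summits at chr6:159238943-159239914, about 1.0 kb inside the canonical start site at position 159240400, and the antisense gene EZR-AS1 has its promoter there as well. ATAC signal carries no strand, so EZR and EZR-AS1 cannot be told apart at this locus. The ranks were 30.2, 0 and 29.3 in Parental and 18.5, 0 and 0 in SAP30-KO1. A summit was thus called in 3 of the 6 libraries and never above rank 30.2. The means were 19.8 ± 17.2 and 6.18 ± 10.7 (SD, n = 3), a difference of -13.7 with overlapping ranges (p = 0.4, two-sided exact permutation test). Leaving out Parental replicate 2 gave -23.6 with ranges apart, and leaving out Parental replicates 1 or 3 gave -8.46 and -8.94. The value depended on weak summits, as it was -2.92 when only summits with a q value of 0.0001 or less were kept. It also depended on the choice of start sites, as it was -7.80 with the canonical start site alone.

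MSN had the highest mean promoter rank of the 4 genes in both groups, although RDX ranked above it in Parental replicates 1 and 3. Its strongest promoter summits lay at the upstream start, chrX:64807855-64808641, about 79 kb before the canonical start at position 64887521. The ranks there were 61.0, 74.7 and 75.9 in Parental and 75.4, 87.1 and 79.5 in SAP30-KO1. The means were 70.5 ± 8.27 and 80.7 ± 5.94 (SD, n = 3). The lowest SAP30-KO1 library lay just under the highest Parental library, so the ranges overlapped. The difference of 10.1 was larger than either SD (p = 0.2, two-sided exact permutation test). Among the summits of its own arm the difference was 5.38 (p = 0.6, two-sided exact permutation test). The ranges were apart with q values of 0.0001 or less (15.1), with equal numbers of top-ranked summits (11.8), without Parental replicate 3 (12.8) and without SAP30-KO1 replicate 1 (12.7). Without Parental replicate 1 the difference was 5.36 and the ranges overlapped.

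The other promoter loci of MSN were looked at separately after their values were seen. At the canonical start, chrX:64887113-64887913, the ranks were 41.6, 38.4 and 0 in Parental and 64.7, 55.5 and 67.6 in SAP30-KO1. All SAP30-KO1 libraries were above all Parental libraries, with a difference of 35.9 (p = 0.1, the floor of the two-sided exact permutation test). Over all 56419 loci its adjusted p was 0.988. A neighbouring locus 1.2 kb inside the canonical start had ranks of 0, 0 and 64.7 in Parental and 16.7, 37.9 and 65.7 in SAP30-KO1. Parental replicate 3, which lacked a summit at the canonical start, thus had one at this neighbour. When the stronger summit of the 2 loci was taken, the ranks were 41.6, 38.4 and 64.7 in Parental and 64.7, 55.5 and 67.6 in SAP30-KO1, with a difference of 14.4 and overlapping ranges (p = 0.2, two-sided exact permutation test). The ranges also overlapped when summits were extended by 100 bp on each side (31.3), and without Parental replicate 3 the difference at the canonical start was 22.6.

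PODXL had a weak promoter summit in every library, at chr7:131240995-131241957, around its canonical start at position 131241387. The ranks were 23.6, 28.2 and 14.3 in Parental and 30.5, 38.5 and 28.8 in SAP30-KO1, and the scores ran from 3.35 to 5.52. Each SAP30-KO1 library ranked above each Parental library, with the lowest SAP30-KO1 and the highest Parental library less than 1 point apart. The means were 22.0 ± 7.09 and 32.6 ± 5.18 (SD, n = 3), a difference of 10.6 (p = 0.1, the floor of the two-sided exact permutation test, adjusted p = 0.945). The ranges overlapped when PODXL was ranked within its own arm (8.79), with q values of 0.0001 or less (13.0) and with equal numbers of top-ranked summits (9.62). Without Parental replicate 3 the difference was 6.70, with the ranges apart.

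Of all 51 loci, 38 had a lower and 13 a higher mean rank in SAP30-KO1. Of these 38, 21 were in the window of RDX, 7 in that of EZR, 7 in that of MSN and 3 in that of PODXL. The median difference was -8.75 over the 51 loci and 0.280 over all 56419 loci. Group ranges were apart for fewer, with 7 loci lower in SAP30-KO1, 6 of them in the RDX window and 1 near EZR. A further 2 were apart with SAP30-KO1 higher, the promoters of MSN and PODXL given above. Among all loci 10.1% had ranges apart, 4.26% with SAP30-KO1 lower and 5.86% higher, and no locus passed the test after adjustment over all of them (smallest adjusted p 0.988, two-sided exact permutation test). The count of lower loci in the 4 windows was 15 without Parental replicate 2, 13 without SAP30-KO1 replicate 2 and 11 without Parental replicate 3. That of higher loci was 7 without Parental replicate 3. A range over fewer libraries can only be narrower, at any locus. The shares over all loci were not counted with a library left out, so these counts have no background to be set against. Of the 15 loci with a summit in all 6 libraries, 11 had a lower and 4 a higher mean rank in SAP30-KO1, with a median difference of -13.7, while 49.0% of all 16314 such loci had a lower one. Of these 11, 6 were in the RDX window. Another 8 loci had a summit in 1 library alone.

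**Figure D2:**
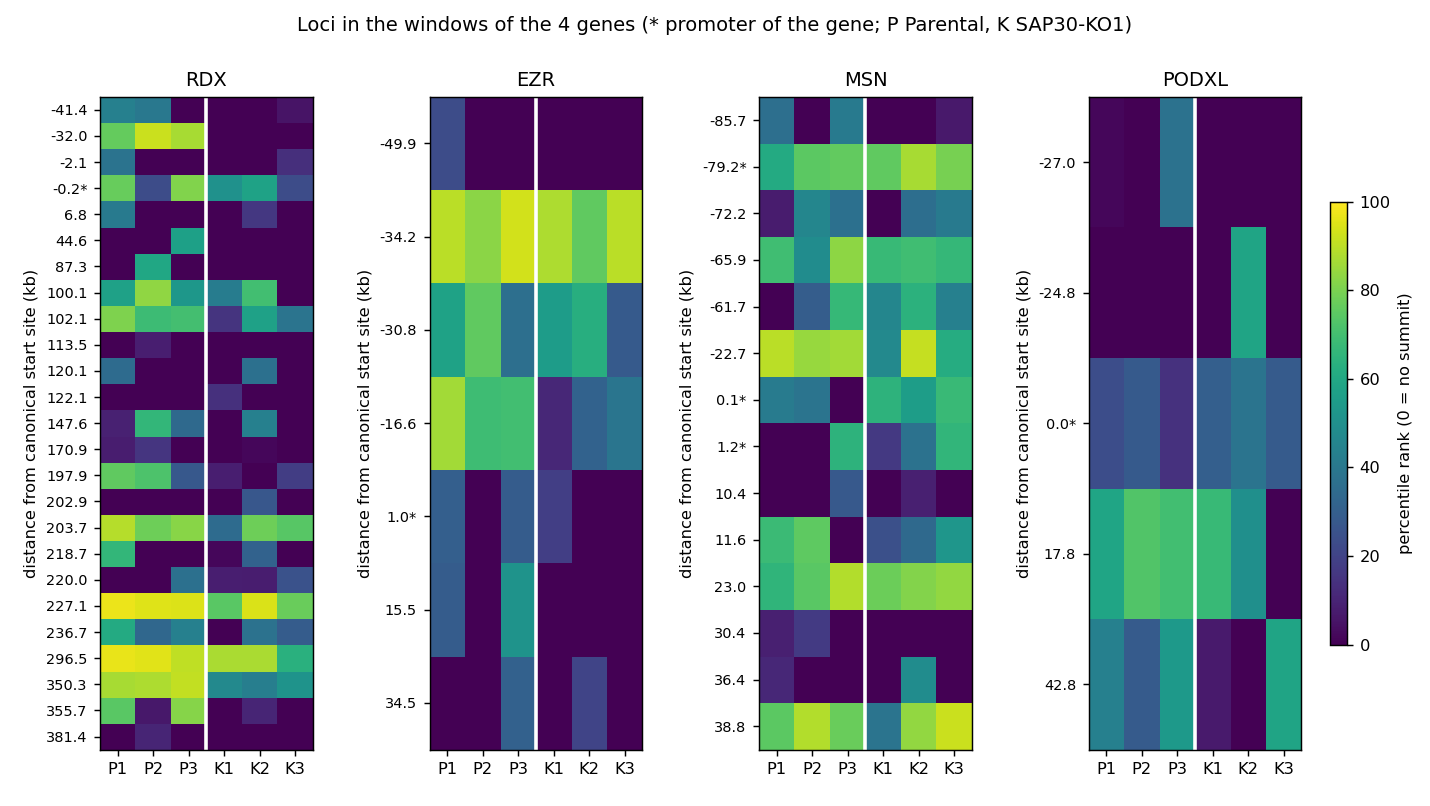
Percentile rank (color, 0 to 100, dark for no summit) of the 51 loci in the windows of RDX, EZR, MSN and PODXL. Rows are loci by distance in kb from the canonical start site, negative upstream and with an asterisk for promoters of the gene, and columns are Parental (P1 to P3) and SAP30-KO1 (K1 to K3) libraries, divided by the white line. In the RDX panel the row at -32.0 kb has summits in the Parental columns only.

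RDX lies on the long arm of chromosome 11, on which ranks were lower in SAP30-KO1 cells along most of the arm. At the 454 loci of that arm with a summit in all 6 libraries, the median difference was -14.7, against 0.171 over all 16314 such loci. Of all loci of the arm, 18.6% had ranges apart with SAP30-KO1 lower, and the share for RDX was 6 of 25, near that of its arm. Of the 6 RDX loci with a summit in all 6 libraries, the promoter among them, all 6 had a lower mean rank in SAP30-KO1, with a median of -18.7, as had 88.8% of the 454 loci of the arm. When ranks were taken within the arm, 4 of the 25 RDX loci still had ranges apart with SAP30-KO1 lower, against 11.8% of the loci of the arm. The window of RDX is long because the annotated gene runs beyond the end of its protein-coding transcripts. The window of its protein-coding transcripts, which ends at position 110045605, held 11 loci, 2 of them apart, and the part beyond held 14, of which 4 were apart.

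The RDX locus with the largest difference lay 32 kb upstream, chr11:110199112-110199633, where the noncoding gene ENSG00000290078 has its promoter. The ranks were 76.2, 91.9 and 86.8 in Parental, and no SAP30-KO1 library had a summit there. The 3 Parental summits fell within 21 bp of each other. The difference was -85.0 (p = 0.1, the floor of the two-sided exact permutation test), and -79.9 among the summits of the arm. The sequence around these summits, chr11:110199264-110199464 on the minus strand, is printed because it is the site where the groups differed most, with a match to CCAAT, the NF-Y motif, in capitals.
RDX upstream site: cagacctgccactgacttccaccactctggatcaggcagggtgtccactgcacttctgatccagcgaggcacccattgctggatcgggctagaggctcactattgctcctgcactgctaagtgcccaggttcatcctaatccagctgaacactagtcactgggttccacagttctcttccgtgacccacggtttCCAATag
Its GC content was 55.2%, lower than that of the RDX promoter, and it held no GC box.

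The strongest RDX loci lay deep inside the gene. One in an intron, 227 kb from the canonical start at chr11:109939908-109940640, had ranks of 97.0, 95.2 and 94.7 in Parental and 74.2, 94.4 and 77.1 in SAP30-KO1. Another intronic one, 296 kb from that start at chr11:109870493-109871351, had ranks of 96.5, 95.5 and 90.6 in Parental and 87.3, 87.5 and 63.6 in SAP30-KO1. Both had ranges apart, with differences of -13.7 and -14.7, close to the median of the arm, and overlapped when ranked within the arm (-6.59 and -7.27). The first also overlapped with q values of 0.0001 or less (-16.6), and the second was -6.83 without SAP30-KO1 replicate 3. The second is printed, as chr11:109870743-109870943 on the minus strand, because it is a strong distal site of RDX with 2 matches to the AP-1 motif TGANTCA, in capitals beside 1 match to CCAAT read on the other strand.
RDX distal site: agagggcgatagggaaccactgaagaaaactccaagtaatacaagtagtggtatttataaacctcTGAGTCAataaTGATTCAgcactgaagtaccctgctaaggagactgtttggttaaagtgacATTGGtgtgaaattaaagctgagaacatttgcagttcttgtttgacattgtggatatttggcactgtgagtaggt
Its GC content was 39.3%.

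Further RDX loci differed by more than the median of their arm. At chr11:110064803-110065591, in an intron 102 kb from the canonical start, the ranks were 80.8, 68.4 and 70.1 in Parental and 14.9, 57.4 and 38.5 in SAP30-KO1, a difference of -36.2 that was -26.5 within the arm. At chr11:109816762-109817598, 350 kb inside RDX and at the promoter of the gene ENSG00000287245, they were 87.1, 87.8 and 90.7 in Parental and 46.9, 42.9 and 51.2 in SAP30-KO1, a difference of -41.5. All Parental libraries lay above all SAP30-KO1 libraries at both sites (p = 0.1 each, two-sided exact permutation test). The second depended on the merging of summits, because with windows of 100 bp on each side the difference at its locus was 17.4 with overlapping ranges.

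The promoter of ZC3H12C, a gene for an RNA-binding nuclease that lies within the RDX window, had ranks of 88.8, 77.9 and 82.4 in Parental and 35.0, 77.9 and 73.8 in SAP30-KO1. The ranges overlapped there, because SAP30-KO1 replicate 2 was level with Parental replicate 2. A locus inside both RDX and ZC3H12C, chr11:109969119-109969930, was named only after its values were seen. It had ranks of 75.5, 71.9 and 27.6 in Parental and 8.45, 0 and 18.2 in SAP30-KO1, a difference of -49.4 and of -42.8 within the arm. Its ranges overlapped with windows of 100 bp on each side (-40.2). The remaining RDX loci were weaker or seen in fewer libraries, and 6 of the 25 had a summit in 1 library alone.

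Outside the RDX window, 1 of 26 loci had ranges apart with SAP30-KO1 lower, near the 4.26% of all loci. Another 2 of the 26 had ranges apart with SAP30-KO1 higher, beside 5.86% of all loci. The clearest difference among the 26 was at an intergenic site 16.6 kb upstream of EZR, chr6:159256634-159257480. It had a summit in all 6 libraries, with ranks of 85.9, 68.9 and 69.6 in Parental and 11.1, 31.3 and 39.0 in SAP30-KO1. The scores were 11.5, 8.15 and 7.60 in Parental and 3.42, 5.04 and 5.28 in SAP30-KO1. Each SAP30-KO1 library lay below each Parental library by a wide gap, and the group means were 74.8 ± 9.67 and 27.1 ± 14.4 (SD, n = 3). The difference was -47.7 (p = 0.1, the floor of the two-sided exact permutation test, adjusted p = 0.988). The ranges were apart with q values of 0.0001 or less (-53.7) and with equal numbers of top-ranked summits (-56.5). They were also apart with windows of 100 bp on each side (-47.7, unchanged). Differences were between -53.6 and -39.7 when single libraries were left out, which cannot make ranges that are apart overlap. The site was picked out from these same values. Within the arm the difference was -48.6, and the median over the 610 loci of the long arm of chromosome 6 with a summit in all 6 libraries was 1.38. The sequence holding 3 of its summits, chr6:159256902-159257102 on the minus strand, is printed because no other site of the ERM genes off chromosome 11 was lower with ranges apart. It held none of the 5 motifs searched, so it has no capitals.
EZR upstream site: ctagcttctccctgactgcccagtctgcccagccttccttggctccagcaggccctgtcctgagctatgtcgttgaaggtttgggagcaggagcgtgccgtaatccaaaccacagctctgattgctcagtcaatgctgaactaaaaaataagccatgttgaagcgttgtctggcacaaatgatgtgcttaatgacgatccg
Its GC content was 51.7%.

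The neighbours of this site differed less. At chr6:159270686-159271489, in an intron of the pseudogene OSTCP1 and 30.8 kb upstream of EZR, the ranks were 57.5, 75.7 and 36.6 in Parental and 55.2, 62.6 and 28.4 in SAP30-KO1. At chr6:159274283-159274868, the promoter of the gene ENSG00000285159, they were 89.6, 82.6 and 93.3 in Parental and 87.6, 75.7 and 89.7 in SAP30-KO1. The differences were -7.87 and -4.14, and the ranges overlapped at both. All 7 EZR loci had a lower mean rank in SAP30-KO1. Ranges were apart for 1 of them, beside 2.96% of all loci of the long arm of chromosome 6 with SAP30-KO1 lower. Of the EZR loci, 3 had a summit in all 6 libraries, and 44.4% of such loci of the arm had a lower mean rank. The other 3 loci, beside the promoter, had a summit in 1 or 2 libraries.

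MSN, by contrast with RDX, had as many loci with a higher as with a lower mean rank, 7 of each. It lies on the long arm of the X chromosome, where the median difference over 301 loci with a summit in all 6 libraries was 7.65 and 13.9% of all loci had ranges apart with SAP30-KO1 higher. Of the 14 MSN loci 1 did so, the canonical promoter. An intronic site 23.0 kb inside the canonical start, chrX:64910065-64910865, had ranks of 65.3, 74.3 and 88.3 in Parental and 77.6, 81.3 and 84.0 in SAP30-KO1. A site 22.7 kb before the canonical start, chrX:64864497-64865340, had ranks of 89.6, 84.5 and 86.3 in Parental and 46.9, 91.2 and 62.0 in SAP30-KO1. Another, 38.8 kb inside at chrX:64925935-64926685, had 74.6, 88.3 and 77.2 in Parental and 38.3, 83.8 and 91.8 in SAP30-KO1. The SAP30-KO1 libraries were spread on both sides of the Parental libraries at the last pair of sites, with SAP30-KO1 replicate 1 the lowest at each. One more site between the upstream and the canonical promoter, at chrX:64821174-64822029, had 69.2, 48.5 and 83.0 in Parental and 67.3, 69.3 and 66.5 in SAP30-KO1.

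PODXL had no distal locus with a summit in all 6 libraries or with ranges apart, so its distal sites were named after their values were seen. An intronic site 17.8 kb inside, chr7:131223230-131223830, had ranks of 58.9, 73.0 and 69.7 in Parental and 67.3, 49.6 and 0 in SAP30-KO1. One 42.8 kb inside, chr7:131198032-131198931, had ranks of 43.4, 28.7 and 54.1 in Parental and 7.19, 0 and 58.5 in SAP30-KO1. The ranges overlapped at both. The mean differences of -28.2 and -20.2 had the opposite sign to the promoter of the gene.

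**Figure D3:**
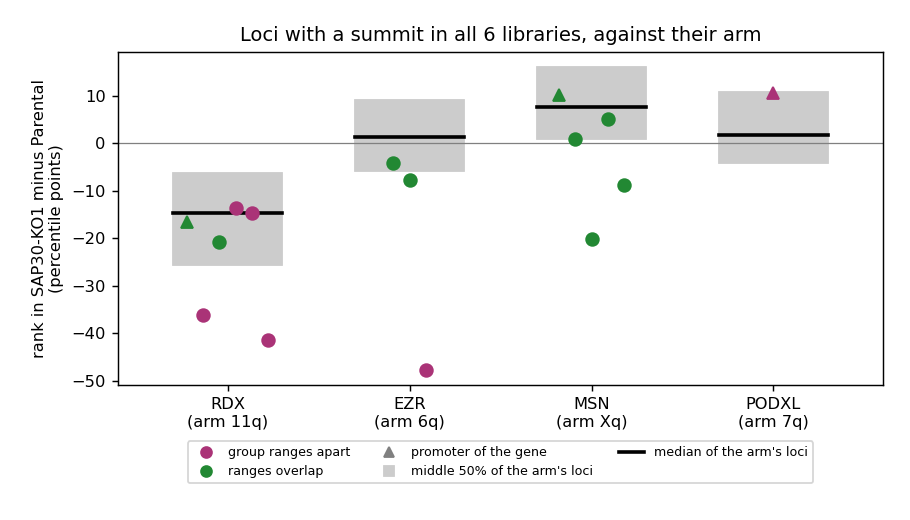
Difference of mean percentile rank, SAP30-KO1 minus Parental (y axis, percentile points), for the 15 loci of the 4 genes with a summit in all 6 libraries, each beside its chromosome arm. Gray boxes hold the middle 50% of the loci of the arm with a summit in all 6 libraries and black lines are their medians (-14.7 for 11q, 1.38 for 6q, 7.65 for Xq and 1.77 for 7q), triangles are promoters of the genes and purple marks group ranges that do not overlap. The EZR site at -47.7 lies far below the box of its arm, while 4 of the 6 RDX loci lie inside theirs and 2 below it.

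The number of summits in the windows was also counted. RDX had 18, 18 and 14 in Parental and 11, 17 and 11 in SAP30-KO1 libraries, EZR 7, 3 and 7 against 4, 5 and 4, MSN 11, 11 and 10 against 9, 12 and 11, and PODXL 4, 3 and 5 against 4, 3 and 2. The ranges overlapped for each gene. Per 10000 summits of the library, the 4 genes together had 10.9, 11.5 and 10.7 in Parental and 9.41, 9.10 and 8.17 in SAP30-KO1, a difference of -2.14 with the groups apart (p = 0.1, the floor of the two-sided exact permutation test). This difference was -2.21 with q values of 0.01 or less, -4.09 with 0.0001 or less and -2.46 with equal numbers of top-ranked summits. Stricter q values also shorten the lists to which the count is scaled. RDX alone differed by -1.30 per 10000. Of all summits, the chromosome arm of RDX held 3.47%, 3.65% and 3.37% in Parental and 2.39%, 2.61% and 2.44% in SAP30-KO1. Without the RDX window the values were 6.0, 5.58 and 6.56 in Parental and 5.71, 4.92 and 4.96 in SAP30-KO1, and the ranges overlapped (difference -0.846, p = 0.2, two-sided exact permutation test).

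The genes that act with the ERM proteins showed no common direction at their promoters. Of 22 listed relatives, activators, scaffolds and membrane partners, 17 had a promoter summit in any library, 8 of them with a lower and 9 with a higher mean rank in SAP30-KO1. Their median difference was 1.70, against 0.671 over all 12568 genes. Ranges were apart with SAP30-KO1 lower for 2 and higher for 0 of the 17, beside 4.58% and 6.01% of all genes, and none passed the test after adjustment.

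Both of these were membrane partners. SDC2, the proteoglycan syndecan-2, had ranks of 85.1, 93.0 and 96.6 in Parental and 39.8, 80.9 and 65.7 in SAP30-KO1, a difference of -29.4. CD34, a sialomucin related to podocalyxin, had 89.0, 61.4 and 76.3 in Parental and 5.24, 56.5 and 4.40 in SAP30-KO1, a difference of -53.5 (p = 0.1 for each, two-sided exact permutation test, adjusted p = 0.945). CD44, the hyaluronan receptor that binds ERM proteins, had 61.9, 30.9 and 37.6 in Parental and 39.5, 69.8 and 72.2 in SAP30-KO1, with overlapping ranges. ARHGDIA, SPN, ICAM1, PDPN and PODXL2 had no promoter summit in any library.

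All 6 activators had a promoter summit, in 5 or 6 libraries each, and none had ranges apart. ROCK1, a kinase downstream of RHOA, had the narrowest ranges of the 6, at 77.4, 73.2 and 85.9 in Parental and 82.4, 77.2 and 81.9 in SAP30-KO1. STK10, which encodes the kinase LOK, had 82.5, 34.9 and 54.3 in Parental and 61.2, 75.3 and 78.6 in SAP30-KO1. NF2, which encodes the ERM relative merlin, had 76.6, 0 and 58.4 in Parental and 51.3, 68.6 and 68.3 in SAP30-KO1. NHERF1, the scaffold that joins podocalyxin to ezrin, had 77.1, 0 and 58.8 in Parental and 56.5, 57.5 and 60.6 in SAP30-KO1. Parental replicate 2 lacked a summit at NF2 and NHERF1, as it did at EZR, and was the lowest Parental library at RDX.

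**Figure D4:**
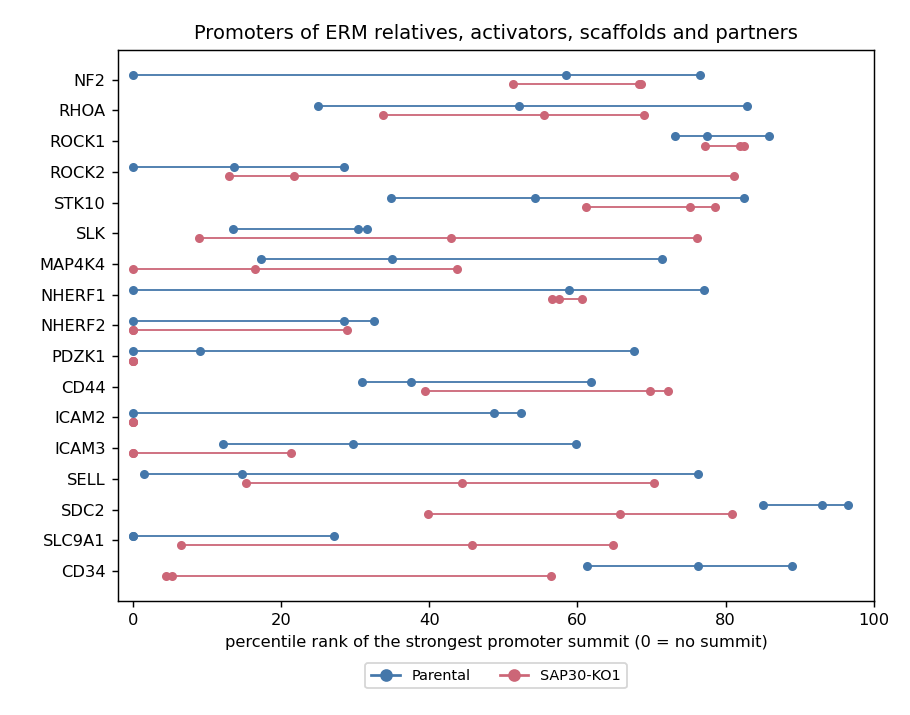
Percentile rank of the strongest promoter summit (x axis, 0 to 100, with 0 for no summit) for the 17 relatives, activators, scaffolds and membrane partners of ERM proteins with a promoter summit in any library. Each point is 1 library, blue for Parental and red for SAP30-KO1, and lines span the 3 libraries of a group. The lines do not overlap at SDC2 and CD34 and overlap at the other genes.

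For each of the 4 genes, the 3 protein-coding genes with the most similar promoter ranks were found by the mean absolute difference of rank over the 6 libraries. They were FRMD4A, PSMD12 and CDC27 for RDX (5.39 to 5.97 points), PELI3, PPM1E and DAPK1 for EZR (3.33 to 3.52), EFNB1, RBM23 and LRRC40 for MSN (3.55 to 3.91) and TIMM22, CYBA and PMEPA1 for PODXL (6.13 to 6.41). None of the 3 genes nearest to RDX lies on the long arm of chromosome 11, and EFNB1, nearest to MSN, lies on the same arm of the X chromosome. All 3 genes nearest to EZR share its 0 in Parental replicate 2 and in SAP30-KO1 replicates 2 and 3.

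Motifs were counted over all 51 loci. In the 301 bp around each locus centre, both strands were searched for the GC box and AP-1 motifs given above and for CCAAT of NF-Y. The TEAD motif, GGAATG, and the ETS motif, which was read as CCGGAA, were searched as well. Of the 12 promoter loci in the 4 windows, those of other genes included, 6 held the GC box, beside 57.3% of all 16628 promoter loci, and 2 the AP-1 motif, beside 13.6%. Of the 39 other loci 19 held the AP-1 motif, beside 41.7% of 39785 such loci, and 1 the GC box, beside 8.47%. The NF-Y motif was found in 5 of the 12 and 14 of the 39 loci (31.3% and 33.3% of all), the TEAD motif in 3 and 11 (13.9% and 25.2%) and the ETS motif in 1 and 2 (21.1% and 4.18%). RDX, EZR and MSN each had a promoter locus with a GC box, which at MSN was the canonical one, whereas the windows at its upstream promoter and at the neighbour of the canonical one held none.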

How the data were processed

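ATAC-seq libraries of Parental (n = 3) and SAP30-KO1 (n = 3) MDA-MB-231 cells were analysed, grouped and numbered by their labels. The authors trimmed single-end reads with Trim Galore (0.4.5), aligned them to hg19 with Bowtie2 (2.3.3.1), removed duplicates with Picard and ran MACS2 (2.1.0) on each library, keeping peaks with q values up to 0.05. Whether reads were shifted for the transposase is not given in the sources used here, but a shift is far smaller than the windows used. The deposited score of each summit is a −log10 q value, which was read from the values, because the lists began at 1.31 to 1.33. List length depends on depth and signal quality, and lists called apart share no common scale, so scores were ranked within a list. Pairs of lists shared 0.417% to 0.598% of summit positions, so none was a copy.

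Summit windows of 501 bp sharing 1 bp or more were joined into loci. Start sites came from GENCODE release 44 mapped to GRCh37, and arms were split at the largest sequence gap. Group means were compared with a two-sided exact permutation test, which enumerates the 20 ways to assign the 6 libraries, with Benjamini-Hochberg adjustment over all genes with a promoter summit or over all loci. The code (Python 3.11.15, pandas 2.3.3, NumPy 2.4.6) was tested on simulated data.

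The genes, lists and comparisons were chosen with earlier results of these data known. Named were the 4 genes, the ERM partners with ranges apart, the 3 genes nearest in promoter rank to each, and at most 6 distal loci per gene, by highest mean rank among those with a summit in all 6 libraries or with ranges apart. Other partners and loci were named after their values were seen. Ranks of loci within an arm, the shorter RDX window, the windows without RDX and the joined MSN loci were added after the data had been seen. The promoter sequence of PODXL is not reported here.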

Additional observations from a re-analysis of the deposited data

How the results depend on the processing

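No p could pass 0.05 under any setting. The differences at the 4 promoters kept their direction under every alternative tried, but whether ranges overlapped did not. Promoters of 500 bp or 2.5 kb and start sites of protein-coding transcripts left the values of all 4 genes unchanged. The canonical start site alone did so for RDX and PODXL. Such unchanged values are no separate check of the direction. Ranges came apart for RDX and EZR without Parental replicate 2 and for MSN under 5 alternatives, and those of PODXL overlapped with q values of 0.0001 or less, with equal numbers of top-ranked summits and within the arm. The 7 loci that were lower in SAP30-KO1 became 8 to 15 when single libraries were left out (15 without Parental replicate 2). They became 1 of 26 without the RDX window and 3 of 37 with the RDX window of the protein-coding transcripts. The 2 higher loci became 2 to 7 when single libraries were left out and 1 with ranks within the arm, where PODXL overlapped. A range over fewer libraries can only be narrower, and fewer loci were counted in shorter windows. With single libraries left out, the shares over all loci were not counted. The RDX site at the promoter of ENSG00000287245 turned from -41.5 to 17.4 with windows of 100 bp on each side, and the number of MSN summits per 10000 turned from -0.134 to 0.112 with equal numbers of top-ranked summits and to 0.0731 without Parental replicate 2 (range -0.241 to 0.0731 over single libraries left out). Windows of 100 bp split the summits into 70 loci instead of 51, and a library without a summit in the part compared counts as rank 0. The value of 17.4 is therefore not that of the whole RDX site. The causes of the turns at MSN were not tested. The median of the ERM partners was 12.5 with promoters of 500 bp.

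Same-numbered libraries did not deviate together (correlations of -0.0179, -0.0127 and -0.0032 over 16314 loci), so the numbers were not taken as pairs. With a replicate block, a sign-flip test was used, whose smallest possible p is 0.25. The mean of same-numbered differences equals the difference of group means, so only the p values could change. In the sign-flip test, the differences were -16.7 for RDX (exact p = 0.75) and -13.7 for EZR (exact p = 0.5). They were 10.1 for MSN, 10.6 for PODXL and -2.14 for summits per 10000 (exact p = 0.25 each, sign-flip test). The number of libraries limits every comparison here, and no read depth is known.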
